A study of Homo sapiens with 4 samples.

Results

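The genes examined encode the subunits that set PBAF and non-canonical BAF apart from the canonical form of the SWI/SNF chromatin remodelling complex, together with the DPF family of double PHD finger proteins. They were picked by symbol, with earlier results of these data known. They were PBRM1, ARID2, BRD7 and PHF10 for PBAF, BRD9, BICRA and BICRAL for non-canonical BAF, and DPF1, DPF2 and DPF3. All 10 were found among the 61228 features of the count files, and all 10 were among the 19159 genes abundant enough to test. RNA-seq had been made from H1792, an established human lung cancer line labelled as wild type (WT), after 96 h with the solvent DMSO or with ACBI1. Each treatment had 2 libraries, so that there were 4 in all. The protocols write the dose of ACBI1 as 1 mM, a unit that the counts cannot check. The title of the series concerns SMARCA4-mutant lung cancer and immunity, and the comparison asks which transcripts differ in cells given the degrader.

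SWI/SNF complexes use an ATPase, SMARCA4 or SMARCA2, to slide or evict nucleosomes. They are built in alternative forms around a shared core. Canonical BAF carries ARID1A or ARID1B with a DPF protein. PBAF carries ARID2, PBRM1, BRD7 and PHF10. Non-canonical BAF, also called GBAF, carries BRD9 with BICRA or BICRAL and lacks an ARID subunit. ACBI1 is a PROTAC, a molecule that joins a ligand for its targets to a ligand for the VHL ubiquitin ligase, and it is known to degrade the SMARCA2, SMARCA4 and PBRM1 proteins. Only RNA was analysed here, so that the counts show transcript levels of these genes and not whether a protein was lost.

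Gene counts ranged from 64281850 to 86010100 per library. Levels are given as CPM, counts per 1000000 counts after TMM scaling. Genes were tested with edgeR's quasi-likelihood test, and a gene is called when its Benjamini-Hochberg adjusted p over all 19159 genes is under 0.05. The labels do not say whether the replicates were separate cultures, so that p-values measure the spread between these libraries, which may be technical. In this design 2 against 2 libraries cannot give an exact permutation p below 0.333 for a single value. Markers of the lung lineage were sparse: NKX2-1, SFTPA1 and SCGB1A1 had 0 counts in each library, and 10 of 15 lung epithelial markers stayed under 1 CPM in each. KRT7, KRT8 and KRT18 carried most of the rest, and the 15 markers summed to between 982 and 1040 CPM with DMSO and between 202 and 324 CPM with ACBI1. Immune markers summed to at most 2.09 CPM in any library. The 7 endothelial markers summed to 12.8 and 49.0 CPM with DMSO and to at most 0.137 CPM with ACBI1, and 2 of the 3 tested were called lower. PECAM1, which made up most of that sum with DMSO, had 997 and 3461 counts with DMSO and 1 and 3 with ACBI1, and VWF had 24 and 23 against 0 and 0. ERG had 0 counts in each library, and the other endothelial markers stayed under 1 CPM. The part of these markers in the results below was not tested. In bulk counts from a cell line, fewer cells holding a transcript and less of it per cell cannot be told apart.

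Of the 10 genes, 3 rose with ACBI1 (ARID2, BICRAL and DPF1), 1 fell (DPF3) and 6 were not called. Each of the 3 sets held exactly 1 riser, and the 1 fall was in the DPF set. Over all tested genes 17.4% were called, 6.75% higher and 10.6% lower. The groups did not overlap for 8 of the 10 genes, against 63.2% of all tested genes. Of these 8, 5 were higher with ACBI1 and 3 lower, beside 31.1% and 32.2% of all tested genes. The median log2 change was 0.27 over PBAF, 0.52 over non-canonical BAF and -0.33 over DPF genes, beside 0.01 over all tested genes. No test was made on these medians.

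**Figure D1:**
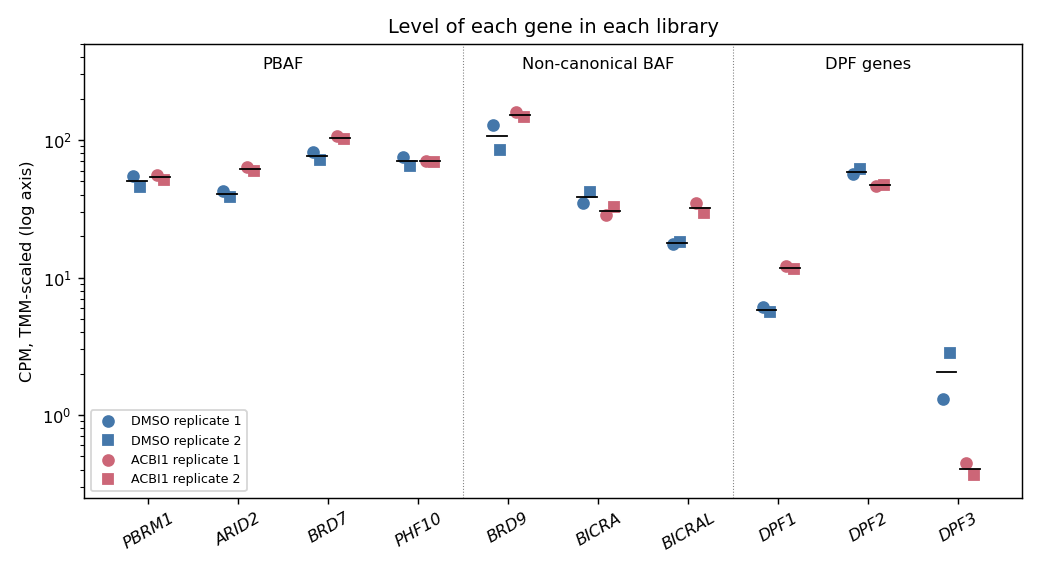
The vertical log axis gives CPM and the horizontal axis the 10 genes by set, with circles for replicate 1, squares for replicate 2, blue for DMSO, red for ACBI1 and black bars for group means. ARID2, BICRAL and DPF1 sit higher in both ACBI1 libraries, DPF3 lower, and the libraries of PBRM1 and PHF10 overlap.

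PBAF was taken first because one of its subunits is a target of the compound. PBRM1 (chr3:52545352-52685917, minus strand, GRCh38) encodes the bromodomain protein that binds acetylated histones within PBAF. It was at 55.0 and 45.3 CPM in DMSO replicates 1 and 2, and at 55.6 and 51.6 CPM in ACBI1 replicates 1 and 2. The groups overlapped, since DMSO replicate 1 lay between the ACBI1 libraries. The log2 change was 0.10 (SE 0.17, 95% interval -0.31 to 0.50), and edgeR gave an adjusted p of 0.734. The interval does not hold a doubling or a halving of this transcript, and a change within it was not detectable with these libraries.

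ARID2 (chr12:45729665-45908040, plus strand), the DNA-binding subunit that takes the place of ARID1A or ARID1B in PBAF, was the 1 called PBAF gene. It was at 42.6 and 38.4 CPM with DMSO and at 63.5 and 59.8 CPM with ACBI1, so that both treated libraries lay above both controls. The change was 1.52-fold, a log2 change of 0.61 (SE 0.15, 95% interval 0.23 to 0.98) with an edgeR adjusted p of 0.0448. Over 8 other scalings, filters and tools, ARID2 was called higher in each, with adjusted p from 0.0276 to 0.0484. It was no longer called when any 1 of the 4 libraries was left out: the log2 change was then 0.69 without DMSO replicate 1, 0.53 without DMSO replicate 2, 0.57 without ACBI1 replicate 1 and 0.64 without ACBI1 replicate 2. The adjusted p was lowest, at 0.0502, without DMSO replicate 1 and highest, at 0.212, without ACBI1 replicate 1.

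BRD7 (chr16:50313487-50368934, minus strand), a bromodomain protein needed for PBAF assembly, was at 81.4 and 71.7 CPM with DMSO and 107 and 101 CPM with ACBI1. Both ACBI1 libraries were above both DMSO libraries, yet the log2 change of 0.44 (SE 0.16, 95% interval 0.06 to 0.83) did not pass the threshold (edgeR adjusted p 0.105). Exons of ADCY7, an adenylyl cyclase gene on the opposite strand, cover 42.3% of the exonic length of BRD7. The strand setting of the counting is not given in the sources used here, so that the BRD7 count may leave out or mix in reads from that stretch. ADCY7 itself had a log2 change of -0.11 (edgeR adjusted p 0.683). In the annotation used here, GENCODE 29, the other overlaps with genes found by symbol in the count files were small. C6orf120 covers 3.32% of the exonic length of PHF10, and ZDHHC11 and TRIP13 cover 2.32% and 1.90% of that of BRD9. A counted gene under another symbol would be missed. PHF10 (chr6:169703905-169725566, minus strand), the PHD finger subunit of PBAF and a relative of the DPF proteins, was at 75.3 and 64.8 CPM with DMSO and 70.9 and 69.6 CPM with ACBI1. The DMSO libraries lay on either side of the ACBI1 libraries, and the log2 change was 0.0041 (SE 0.16, 95% interval -0.38 to 0.39, edgeR adjusted p 0.989).

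The proportion between PBAF transcripts was also compared within each library. PBRM1 counts were 1.29 and 1.18 times those of ARID2 in the DMSO libraries, and 0.876 and 0.863 times in the ACBI1 libraries. A ratio inside a library needs no scaling. PBRM1 had more counts than ARID2 in both controls and fewer in both treated libraries, but the 2 genes differ in length. Per kb of exon, the mean CPM of PBRM1 was above that of ARID2 in both groups. It was 5.19 against 3.34 with DMSO and 5.55 against 5.08 with ACBI1. Per kb of coding length with ACBI1, ARID2 (11.1) was above PBRM1 (10.5), with libraries that overlapped. The difference in log2 ratio was -0.51, larger than the spread between replicates (SD 0.09 for DMSO and 0.01 for ACBI1). Its exact two-sided permutation p was 0.333, the smallest this design allows, and 0.389 after adjustment over the 7 pairs compared.

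Non-canonical BAF was the next set. BRD9 (chr5:850291-892824, minus strand), its bromodomain subunit and a relative of BRD7, had the highest CPM of the 10 genes. It was at 128 and 85.1 CPM with DMSO and 159 and 147 CPM with ACBI1. Both ACBI1 libraries were above both controls, but the DMSO replicates were far apart, and the log2 change of 0.52 (SE 0.23, 95% interval -0.03 to 1.08) was not called (edgeR adjusted p 0.169). Without DMSO replicate 1, BRD9 was called higher with a log2 change of 0.85 (edgeR adjusted p 0.0228), and without DMSO replicate 2 the log2 change was 0.25. The BRD7 to BRD9 count ratio was 0.633 and 0.842 in the DMSO libraries and 0.672 and 0.688 in the ACBI1 libraries, so that the groups overlapped (exact permutation p 1, two-sided).

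BICRA and BICRAL are paralogs that occupy the same place in the complex as alternatives to each other. BICRA (chr19:47608196-47703277, plus strand) was at 34.9 and 41.6 CPM with DMSO and 28.4 and 32.4 CPM with ACBI1. Both ACBI1 libraries were below both controls, with a log2 change of -0.33 (SE 0.18, 95% interval -0.76 to 0.09) that was not called (edgeR adjusted p 0.237). BICRAL (chr6:42746958-42868560, plus strand) was at 17.5 and 18.2 CPM with DMSO and 34.7 and 29.5 CPM with ACBI1. It rose 1.80-fold, a log2 change of 0.85 (SE 0.17, 95% interval 0.42 to 1.27) with an edgeR adjusted p of 0.0259. BICRAL was also called in each of the 8 other scalings, filters and tools (adjusted p from 0.00229 to 0.0282). It was not called without ACBI1 replicate 1 (log2 change 0.73, adjusted p 0.155) or without ACBI1 replicate 2 (log2 change 0.95, adjusted p 0.0622).

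The proportion between the paralogs did not overlap between the groups. BICRA counts were 1.99 and 2.29 times those of BICRAL in DMSO replicates 1 and 2, and 0.817 and 1.10 times in ACBI1 replicates 1 and 2. The ratio was 2.25-fold lower with ACBI1, a difference of -1.17 in log2 ratio beside SDs of 0.14 and 0.30 between replicates. It ranged from -1.39 to -0.96 when each library was left out. The exact two-sided permutation p was 0.333, or 0.389 adjusted over the 7 pairs.

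**Figure D2:**
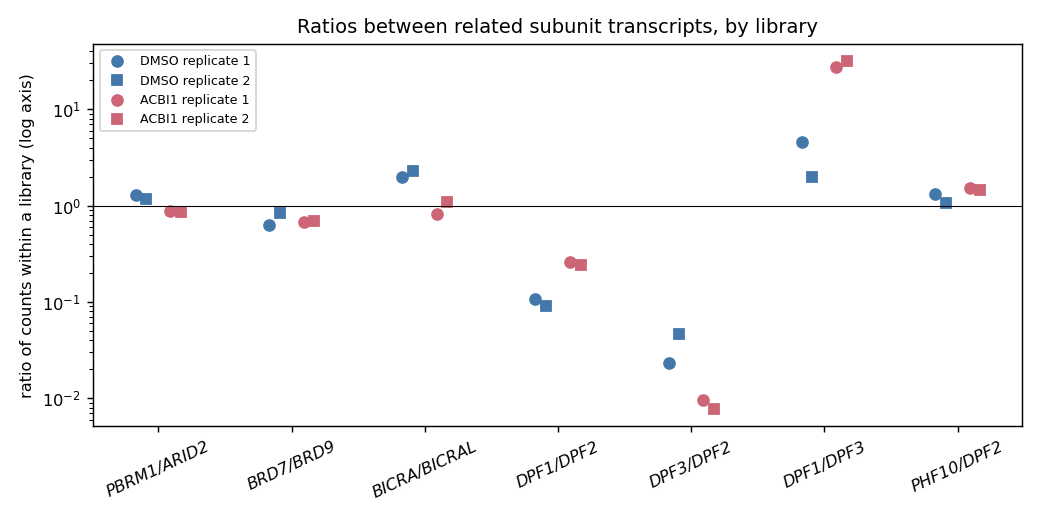
The vertical log axis gives the ratio of counts of 2 genes within a library, for the 7 pairs on the horizontal axis, with blue for DMSO, red for ACBI1, circles for replicate 1 and squares for replicate 2. BICRA to BICRAL lies near 2 in the controls and near 1 with ACBI1, and DPF1 to DPF3 shows the widest gap between groups.

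The stretch before the start of BICRAL is shown because BICRAL was the called gene of this set. The 250 bases before the RefSeq start nearest the annotated 5′ end (GRCh38.p14, chr6:42746737-42746986, plus strand, 5′ to 3′) are in lower case, with matches to CCAAT or GGGCGG on either strand in capitals.
BICRAL: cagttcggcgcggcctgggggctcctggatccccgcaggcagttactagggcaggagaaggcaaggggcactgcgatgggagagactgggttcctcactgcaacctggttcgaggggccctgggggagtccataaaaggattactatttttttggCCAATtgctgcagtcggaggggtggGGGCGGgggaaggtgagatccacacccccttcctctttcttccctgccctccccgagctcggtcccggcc
This window holds 1 CCAAT box (CCAAT) and 1 GC box (GGGCGG). By GENCODE 29, which places the start elsewhere, 29 of its bases are exonic. Windows were found in RefSeq for 9 of the 10 genes, the exception being ARID2. That of PHF10 (chr6:169724501-169724750) lies inside the span of the gene in GENCODE 29. The CCAAT box was in 5 of the 9 and in 32.0% of all 35116 windows of that length. The GC box was in 7 of the 9 and in 42.6% of all. G and C made up 59.2% to 86.4% of the 9 windows, against a median of 58.0% over all. The motif shares were not adjusted for this. Of 7 further motifs searched on both strands, none of the 9 windows held an AP-1 site (TGANTCA, 6.57% of all windows), a CRE (TGACGTCA, 1.65%) or a TEAD site (GGAATG, 11.9%). An E-box (CACGTG, 6.34%) was in PBRM1, an ETS site (CCGGAAG, 8.52%) in BRD9, a TATA box (TATAAA, 10.7%) in BICRA and an E2F site (TTTCCCGC, 1.39%) in BRD7. Such a match is a run of letters, and binding was not measured.

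The DPF genes spanned the widest range of changes of the 3 sets, from DPF3 to DPF1. Their proteins carry a pair of PHD fingers that read acylated histone H3. DPF2 is the broadly expressed member, DPF1 is best known from neurons, and DPF3 is best known from heart and muscle and from neurons. DPF2 (chr11:65333754-65353249, plus strand) was at 56.9 and 61.1 CPM with DMSO and 46.4 and 47.2 CPM with ACBI1. Both ACBI1 libraries were below both controls, and the log2 change of -0.33 (SE 0.15, 95% interval -0.69 to 0.02) was not called (edgeR adjusted p 0.171).

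DPF1 (chr19:38211006-38229714, minus strand) was at 6.08 and 5.59 CPM with DMSO and 12.2 and 11.5 CPM with ACBI1, from 495, 402, 1089 and 755 counts. The groups were well apart and the replicates close together. It rose 2.03-fold, a log2 change of 1.02 (SE 0.23, 95% interval 0.47 to 1.57) with an edgeR adjusted p of 0.0310. Each of the 8 other scalings, filters and tools called DPF1 higher (adjusted p from 0.000476 to 0.0303). With 1 library left out the log2 change stayed between 0.96 and 1.09, but DPF1 was called only without DMSO replicate 1. The adjusted p was 0.0824 without DMSO replicate 2, 0.139 without ACBI1 replicate 1 and 0.105 without ACBI1 replicate 2. Of 10 neuronal markers, 7 were tested and none was called, with 1 at an unadjusted p under 0.05 in each direction. These were ELAVL4, with a log2 change of 1.76 (edgeR adjusted p 0.062), and SYT1, with one of -0.89 (adjusted p 0.0778). The 10 markers summed to between 131 and 207 CPM with DMSO and between 92.9 and 114 CPM with ACBI1, most of it from SYT1, and STMN2 had 0 counts in each library. The part of neuronal gene expression in the DPF1 result was not tested.

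DPF3 (chr14:72619296-72894116, minus strand) went the other way and was the least abundant of the 10. It had 107 and 203 counts with DMSO and 40 and 24 counts with ACBI1. These gave 1.31 CPM (95% exact Clopper-Pearson interval 1.08 to 1.59) and 2.82 CPM (2.45 to 3.24) in DMSO replicates 1 and 2, and 0.447 CPM (0.319 to 0.608) and 0.366 CPM (0.235 to 0.545) in ACBI1 replicates 1 and 2. The intervals cover counting error only. The DMSO replicates differed from each other beyond their intervals, and both were above both ACBI1 libraries. DPF3 fell 5.05-fold, a log2 change of -2.34 (SE 0.49, 95% interval -3.54 to -1.14) with an edgeR adjusted p of 0.0277. It was called lower in each of the 7 other settings that tested it (adjusted p from 5.00e-06 to 0.0379), while a filter at a mean of 5 CPM left it out. Without DMSO replicate 2, the log2 change was -1.69 and the adjusted p 0.0628. Without DMSO replicate 1 it was -2.78 and still called, without ACBI1 replicate 1 it was -2.48 (adjusted p 0.0751), and without ACBI1 replicate 2 it was -2.21 (adjusted p 0.0817). Of 10 cardiac and skeletal muscle markers, 9 stayed under 1 CPM in each library, and MYH6, MYOD1 and MYOG had 0 counts. They summed to 0.368 and 0.695 CPM with DMSO and to 1.22 CPM in both ACBI1 libraries, most of it with ACBI1 from TNNI3. The 2 that were tested went opposite ways and were not called: TNNI3 had a log2 change of 1.74 (edgeR adjusted p 0.0568) and TTN one of -1.50 (adjusted p 0.141). The part of muscle gene expression in the DPF3 result was not tested.

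The starts of the DPF genes that moved in opposite directions are printed for comparison, 250 bases each before the RefSeq start on GRCh38.p14, 5′ to 3′, with CCAAT and GGGCGG matches on either strand in capitals. DPF1 lies at chr19:38229696-38229945 and DPF3 at chr14:72894102-72894351, both on the minus strand.
DPF1: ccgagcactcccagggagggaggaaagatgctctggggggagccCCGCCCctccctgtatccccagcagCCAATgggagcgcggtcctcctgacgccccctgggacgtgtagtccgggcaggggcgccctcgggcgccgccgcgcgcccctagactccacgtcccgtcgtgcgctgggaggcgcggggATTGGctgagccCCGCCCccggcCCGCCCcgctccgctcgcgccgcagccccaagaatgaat
DPF3: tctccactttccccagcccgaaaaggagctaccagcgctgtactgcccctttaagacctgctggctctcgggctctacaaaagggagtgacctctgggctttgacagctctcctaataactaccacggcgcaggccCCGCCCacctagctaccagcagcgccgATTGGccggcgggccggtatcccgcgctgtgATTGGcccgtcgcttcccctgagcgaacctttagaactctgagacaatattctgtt
Both windows hold 2 CCAAT boxes, and DPF1 holds 3 GC boxes beside 1 in DPF3. By GENCODE 29, 19 bases of the DPF1 window and 15 of the DPF3 window are exonic. G and C make up 74.8% of the DPF1 window and 59.2% of the DPF3 window, against a median of 58.0% over all windows. The DPF2 window, not printed, holds 1 CCAAT box and no GC box, and 98 of its bases are exonic by GENCODE 29.

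The DPF transcripts were then set against each other within each library. DPF1 had 4.63 and 1.98 times the counts of DPF3 in DMSO replicates 1 and 2, and 27.2 and 31.5 times in ACBI1 replicates 1 and 2. That is a 9.67-fold higher ratio with ACBI1, a difference of 3.27 in log2 ratio beside replicate SDs of 0.87 and 0.15, or 2.66 to 3.89 with 1 library left out. DPF1 had 0.107 and 0.0914 times the counts of DPF2 with DMSO and 0.262 and 0.244 times with ACBI1. DPF3 had 0.0231 and 0.0462 times the counts of DPF2 with DMSO and 0.00963 and 0.00775 times with ACBI1. PHF10, the relative used by PBAF, had 1.32 and 1.06 times the counts of DPF2 with DMSO and 1.53 and 1.47 times with ACBI1. None of these 4 ratios overlapped between groups. Taken singly, 63.2% of all tested genes did not overlap either, and the share over other pairs of genes was not computed. The 4 ratios share genes, so that they are not separate results. Each had an exact two-sided permutation p of 0.333, or 0.389 adjusted over the 7 pairs.

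Summed over each set, PBAF genes held 254 and 220 CPM with DMSO and 297 and 282 CPM with ACBI1. The non-canonical BAF genes held 181 and 145 CPM with DMSO and 222 and 209 CPM with ACBI1. The DPF genes held 64.3 and 69.5 CPM with DMSO and 59.0 and 59.1 CPM with ACBI1, most of it DPF2. The sums of both complexes were higher in both ACBI1 libraries and the DPF sum was lower. Taken singly, 63.2% of all tested genes did not overlap between groups. From DMSO to ACBI1, mean CPM went from 76.5 to 104 for BRD7 (not called) and from 40.5 to 61.6 for ARID2. PBRM1 went from 50.1 to 53.6 and PHF10 from 70 to 70.2. BRD9 (not called) went from 107 to 153, BICRAL from 17.9 to 32.1 and BICRA from 38.3 to 30.4. BRD9 leads the non-canonical BAF sum and DPF2 the DPF sum. No single gene leads the PBAF sum, where BRD7 and PHF10 had means of 76.5 and 70 CPM with DMSO. These sums were not tested.

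Levels of different genes are compared per length. On the scale of CPM per kb of exon, the order with DMSO was PHF10 (12.7 ± 1.34, SD, n = 2), BRD9 (11.1 ± 3.17), BRD7 (9.01 ± 0.808), DPF2 (7.65 ± 0.385), PBRM1 (5.19 ± 0.710), BICRA (5.10 ± 0.631), ARID2 (3.34 ± 0.245), BICRAL (2.61 ± 0.0723), DPF1 (1.22 ± 0.0722) and DPF3 (0.300 ± 0.155). Neighbours whose libraries overlapped were PHF10 and BRD9, BRD9 and BRD7, and PBRM1 and BICRA. With ACBI1 the order was led by BRD9 (16.0 ± 0.886), then PHF10 (12.7 ± 0.166) and BRD7 (12.2 ± 0.500), of which PHF10 and BRD7 overlapped. DPF2 (6.07 ± 0.0733), PBRM1 (5.55 ± 0.293), ARID2 (5.08 ± 0.216), BICRAL (4.69 ± 0.537), BICRA (4.05 ± 0.377), DPF1 (2.47 ± 0.103) and DPF3 (0.0590 ± 0.00831) followed. ARID2 and BICRAL overlapped there, as did BICRAL and BICRA. In mean level, BICRA ranked above ARID2 and BICRAL with DMSO and below both with ACBI1. Per length of the longest coding transcript, however, BICRA (5.30 ± 0.493) stayed above BICRAL (4.92 ± 0.563) with ACBI1, with libraries that overlapped. DPF1 and DPF3 held the lowest places in both groups on this scale. Per coding length, however, DPF1 (9.09 ± 0.380) stood above BICRA (6.50 ± 0.604) with ACBI1. The top of the order with DMSO also depended on the length used. Per length of the longest coding transcript it was BRD9 (49.4 ± 14.1), DPF2 (21.1 ± 1.06), PHF10 (15.9 ± 1.69) and BRD7 (14.3 ± 1.28). DPF2 and PHF10 did not overlap there. Per coding length these genes stood in the same order, and DPF2 and PHF10 overlapped.

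**Figure D3:**
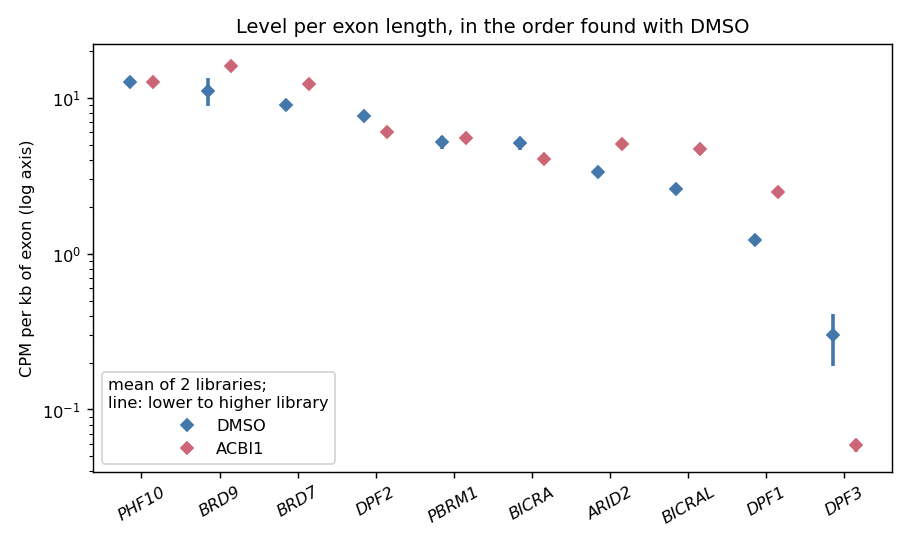
The vertical log axis gives CPM per kb of exon and the horizontal axis the genes in their order with DMSO, with blue diamonds for DMSO means, red diamonds for ACBI1 means and lines from the lower to the higher library. DPF3 drops from 0.300 to 0.0590 and lies lowest in both groups, while BRD9 is highest with ACBI1 at 16.0.

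The rest of the SWI/SNF complex was read from a list of 19 genes, of which 18 were tested and ACTL6B had 0 counts in each library. In this list 3 genes rose, 0 fell and 15 were not called by edgeR. Over all tested genes 6.75% were called higher and 17.4% in either direction. The share of the list called in either direction lay near 17.4%. All 3 calls were higher, a larger share than 6.75%, and this difference was not tested. An unadjusted p under 0.05 was found for 5 higher and 0 lower genes, and the median log2 change was 0.19. DESeq2 called 5 higher and limma-voom 4 higher, and neither called any lower. BCL7C, a small accessory subunit, went from 19.0 and 18.0 CPM to 42.8 and 33.5 CPM, a log2 change of 1.04 (edgeR adjusted p 0.0178). SMARCD3, a core subunit best known from heart and muscle, went from 15.2 and 14.3 CPM to 31.2 and 23.7 CPM, a log2 change of 0.89 (edgeR adjusted p 0.0337). BCL7A, a paralog of BCL7C, had a log2 change of 0.71 (edgeR adjusted p 0.0407). Without ACBI1 replicate 1 none of the 18 was called, and without DMSO replicate 2 or ACBI1 replicate 2 1 was called. The canonical BAF subunits ARID1A and ARID1B, counterparts of ARID2, had log2 changes of 0.55 (edgeR adjusted p 0.0599) and 0.38 (adjusted p 0.150). ARID1A and ARID1B were not called, though both ACBI1 libraries were above both controls for each. ARID2, at 0.61, lay close to ARID1A, and a difference between the 2 was not tested.

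**Figure D4:**
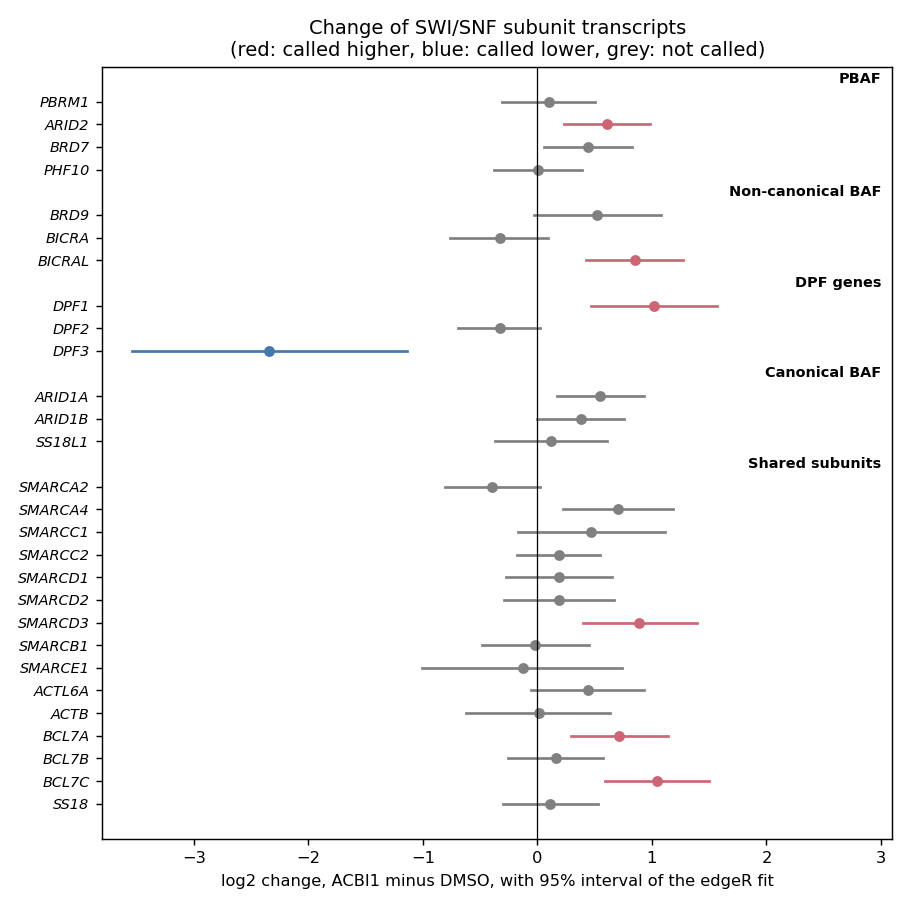
The horizontal axis gives the log2 change, ACBI1 minus DMSO, with points for the edgeR estimate and lines for its 95% interval, for the 10 genes and for 18 other SWI/SNF subunits. DPF3 is the 1 gene called lower (blue), 6 genes are called higher (red), and the rest are grey.

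Bromodomain genes outside SWI/SNF were listed as a comparison for PBRM1, BRD7 and BRD9, which read the same kind of histone mark. Of 35 listed, 32 were tested, 3 fell and none rose, with a median log2 change of -0.04. The share that fell lay near the 10.6% called lower over all tested genes. The falls were ZMYND8 (log2 change -1.23, edgeR adjusted p 0.0137), SP100 (-1.12, adjusted p 0.0118) and BRPF3 (-0.92, adjusted p 0.0140). An unadjusted p under 0.05 was found for 2 higher and 5 lower genes. The SWI/SNF bromodomain genes PBRM1, BRD7 and BRD9 were not called in either direction.

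For each called gene, the tested genes of similar abundance (mean CPM within 2-fold) whose centred log2 CPM lay nearest over the 4 libraries were listed, by Euclidean distance. For ARID2 they were ING5 (distance 0.0334) and NUBPL (0.0420), among 4929 candidates. For BICRAL they were SNUPN (0.0773) and CNKSR3 (0.0981), among 4649. For DPF1 they were ZNF891 (0.0279) and GINS3 (0.0734), among 3072. For DPF3 they were SLC27A3 (0.175) and TOX-DT (0.276), among 2539. With 4 libraries in 2 groups, such nearness mostly records a like change between treatments: the log2 change was 0.63 for ING5, 0.81 for SNUPN, 1.02 for ZNF891 and -2.27 for SLC27A3.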

How the data were processed

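The deposited files hold raw read counts per gene symbol, in the layout of htseq-count, for 4 libraries grouped by the treatment in their titles. TopHat2 2.1.1, HTSeq 0.11.0 and the build hg38 are named in the submitters' processing notes. The annotation and strand setting are not given in the sources used here, and per the labels' protocols the library kit is one sold for DNA. The 5 lines for reads given to no gene, 13.9% to 15.4% of reads listed, were left out. Counts were filtered with filterByExpr (minimum count 10, minimum total 15), scaled by TMM and fitted on treatment alone by the quasi-likelihood functions of edgeR 4.0.16 (R 4.3.3), with two-sided tests. DESeq2 1.42.0, limma 3.58.1 (voom), other scalings, filters and thresholds, a replicate block and each library left out were the alternatives. Replicates differed beyond sampling noise (chi-square per degree of freedom 144 for DMSO and 94.9 for ACBI1). The script was tested on simulated counts, in which fewer genes were changed than were called here. It called 20.3% of 74 genes given a log2 change of 1 in either direction. At 2 it called 63% of 54 genes and at 4 it called 93.8% of 65, with 19 false calls among 18639 genes. Set against the genes called rather than all genes, the 19 were a larger share than the adjusted p threshold allows. This holds even if every changed gene is counted as called. A gene with a change of 2 or less can thus go uncalled, and a called gene can be a false call. Positions, exon lengths and overlaps came from GENCODE 29 (GRCh38), matched by symbol for all 10 genes, and sequences from RefSeq (GRCh38.p14). Named genes were the 10, at most 4 called genes with the largest change per context list, the 2 nearest genes per called gene, and genes whose exons overlap one of the 10. The members, lists and motifs were chosen with earlier results of these data known.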

Additional observations from a re-analysis of the deposited data

How the results depend on the processing

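The 3 rises and 1 fall among the 10 genes were the same in number under 7 of 8 other scalings, filters and tools, and the filter at a mean of 5 CPM gave 3 rises with DPF3 untested. At an adjusted p threshold of 0.01, edgeR called 0 of the 10 (5 had an unadjusted p under 0.05, and DESeq2 and limma-voom each called 4 at 0.05), 0 of the 18 other subunits and 783 of all genes. With the replicate number as a block, 8 of the 10 were called, 5 higher and 3 lower, as were 9 of the 18 other subunits and 7909 of all 19159 genes (53.1% of them lower, against 61.2% of 3331 without the block). BRD7, BRD9, BICRA and DPF2 were the added members (adjusted p 0.0145, 0.0115, 0.0499 and 0.0446). The labels do not say that a number marks a shared batch, and with 2 pairs the correlation of the replicate differences (0.442) does not settle it. With 1 library left out, 0 to 4 of the 10 were called, 0 to 6 of the 18 and 1379 to 4292 of all genes; such fits have fewer samples and assume that the lone library varies like the other group. Testing every gene with a count gave 5518 calls. The 18 other subunits had 5 calls under upper quartile scaling, 5 under library size only and 5 with DESeq2, and the cause was not tested. Signs turned for PBRM1 (-0.04 without DMSO replicate 2, with a range to 0.25 over the libraries left out), for PHF10 (-0.01 with every gene with a count, -0.01 at a mean of 5 CPM, -0.10 without DMSO replicate 2 and -0.00065 without ACBI1 replicate 1, with a range to 0.12) and for the BRD7 to BRD9 log2 ratio (0.10 without DMSO replicate 2, with a range down to -0.31), none of which was called. Of 40 levels per length under another length, 39 moved beyond the replicate SD, because the lengths differ. Depth limits DPF3 most, with 24 counts in its lowest library.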

Other observations

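Protein-coding genes that start on the opposite strand within 1000 bases of one of the 10 genes were listed after the results were seen. There were 2. TRIP13, which encodes an AAA+ ATPase of the mitotic checkpoint, starts 181 bases from BRD9. TRIP13 had a mean of 56.5 CPM (SD 14.5) over the DMSO libraries and 181 CPM (SD 11) over the ACBI1 libraries, with n = 2 for each. It rose by a log2 of 1.68 (SE 0.22, edgeR adjusted p 0.00776), while BRD9 had 0.52 and was not called. TRIP13 exons cover 1.90% of the exonic length of BRD9. TBCC, which encodes a tubulin folding cofactor, starts 862 bases from BICRAL. TBCC had a mean of 24.7 CPM (SD 2.60) over the DMSO libraries and 14.0 CPM (SD 1.75) over the ACBI1 libraries. It fell by 0.82 on the log2 scale (SE 0.20, edgeR adjusted p 0.0384), while BICRAL rose by 0.85. Whether the members of either pair differ in their change was not tested.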
